A study of Mus musculus with 12 samples.

Results

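The subject is the lung of mice given recombinant human PBEF (rhPBEF) into the trachea without mechanical ventilation, set against the lung of control mice. Members were the 3 arrays titled rhPBEF and the 3 titled control, 6 of the 12 arrays of the series. Affymetrix arrays measured total lung RNA, and each gene with a single symbol was represented by its probe set of highest mean, which gave 18193 genes. Of these, 12921 were tested because their mean over the 12 arrays exceeded 6.42 on the log2 scale, the 40th percentile of all probe sets, and 5272 lay below it. A gene low in control lungs could pass through the groups given rhPBEF, as did Cxcl3, Ccl12 and Mab21l3. All mice were 8 to 12 weeks old. Each rhPBEF mouse received 20 µg of the protein intratracheally, dissolved in water at 1.5 µl per gram. The control mice received PBS. The other groups, of 3 arrays each, were mice given the same rhPBEF and ventilated for 4 hours with breaths of 30 ml/kg, and mice ventilated that way without rhPBEF. The labels give no route for the PBS and no time between rhPBEF and tissue collection, and no group received water alone. Nothing states that arrays came from separate animals, and the p-values therefore rest on the spread of these arrays, which may be technical.

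PBEF, also called visfatin, is nicotinamide phosphoribosyltransferase as found outside cells. Inside them the enzyme, which Nampt encodes in mice, recycles nicotinamide into NAD. The lung answers inhaled inflammatory stimuli through epithelial cells and alveolar macrophages, whose pattern recognition and cytokine receptors signal through the transcription factor NF-kB. Its targets include chemokines that draw neutrophils out of the blood, cytokines such as IL-6, secreted antimicrobial proteins, and inhibitors of the pathway itself.

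Most genes called after intratracheal rhPBEF rose. By limma at an adjusted p under 0.05, 158 genes differed between rhPBEF and control lungs, which is 1.22% of those tested. Of these, 121 rose (0.936% of genes tested) and 37 fell (0.286%). These shares are the background for the counts of called members given for each gene list. The rises were larger than the falls: 97 genes were at least 2-fold higher, 36 at least 4-fold and 19 at least 8-fold, whereas 3 were at least 2-fold lower. In all 158 the rhPBEF arrays did not overlap the control arrays. The same held for 33.3% of all genes tested, 9.24% with the rhPBEF arrays above control and 24% with them below. Over all genes tested the median log2 difference was -0.07, with 4428 genes above 0 and 8493 below. Centring each array on its median turned the calls into 138 rises and 19 falls, and the median into -0.04. With array weights, whose estimation stopped before converging, the calls were 621 rises and 1005 falls.

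The count of called genes depended on single arrays. Without rhPBEF replicate 1 it was 56 and without rhPBEF replicate 2 it was 51, and it was 55, 44 and 48 without control replicates 1, 2 and 3. Leaving out arrays outside the comparison, which share the estimate of spread, gave 265 without ventilation replicate 2 and, for the combined treatment, 105 without replicate 2 and 358 without replicate 3. Ventilation replicate 2 stood apart from the other arrays on the second principal component, and rhPBEF replicate 2 was high in skeletal muscle genes, as given with the cell type markers. Counting probe sets in place of genes did not follow single genes. The 37 genes called under every alternative fitted by gene that kept them past its filter, and without each array in turn, were Cxcl1, Cxcl2, Cxcl3, Cxcl5, Ccl20, Il6, Il1f9, Tnf, Socs3, Cd14, Tnfaip2, Tnfaip3, Zc3h12a, Malt1, Saa3, Lcn2, Hpx, Fgg, Itih4, Pigr, Muc4, Steap4, Slc26a4, Slc5a1, Slc7a2, Arg2, Ch25h, Ctps, Mab21l3, Plek, Pik3r5, Ptpn2, Hivep3, Rhou, Gja1, Btc and Tnfrsf21. Each other called gene lost its call under at least 1 of them.

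**Figure D1:**
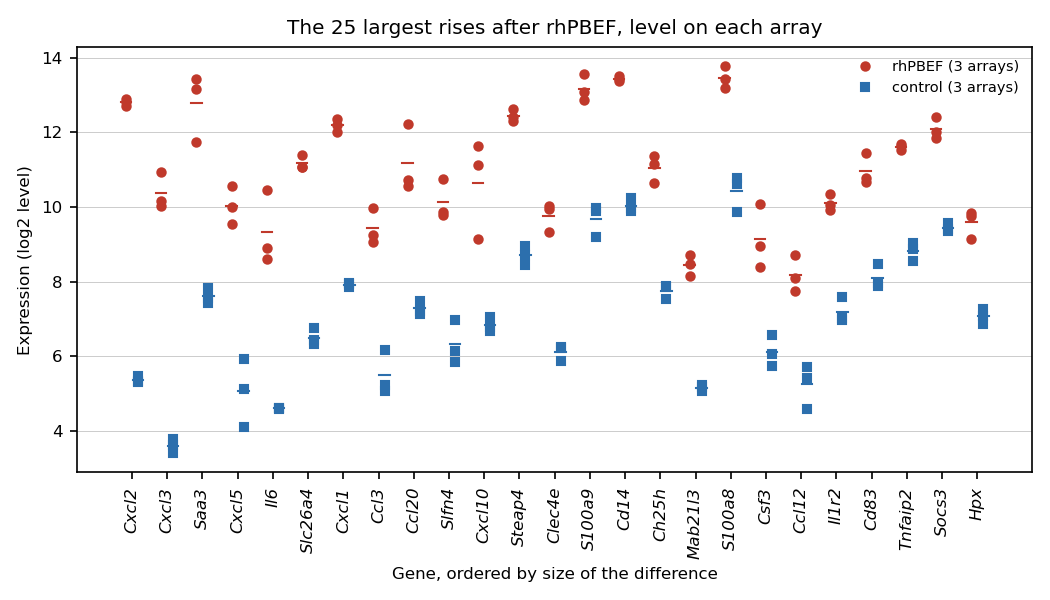
Log2 expression level (vertical axis) of the 25 genes with the largest rises on each of the 3 rhPBEF arrays (circles) and 3 control arrays (squares), ordered by the size of the log2 difference. Bars mark group means, and in each gene the lowest rhPBEF array lies above the highest control array.

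The 2 largest rises were those of the neutrophil chemokine genes Cxcl2 and Cxcl3. Cxcl1, Cxcl2, Cxcl3 and Cxcl5 encode CXC chemokines that carry a glutamate-leucine-arginine motif and attract neutrophils through the receptor CXCR2. Of the 7 tested genes of this class and its receptors, 4 rose and 0 fell, and the median log2 difference was 4.27. Cxcl2 had log2 levels of 12.82, 12.69 and 12.90 on the rhPBEF arrays, against 5.48, 5.33 and 5.31 on the control arrays. The difference was 7.43 (SE 0.52), or 172-fold (limma adjusted p = 7.97e-05). The groups were far apart and each was tight. Cxcl3 stood at 10.95, 10.16 and 10.02 in rhPBEF lungs and 3.41, 3.78 and 3.61 in control lungs, a difference of 6.77 (SE 0.65, adjusted p = 6.04e-04). Cxcl5 reached 10.01, 9.54 and 10.56 in rhPBEF lungs, against 4.11, 5.13 and 5.93 in control lungs, where replicate 1 was lowest. Its difference was 4.98 (SE 0.61, adjusted p = 0.00315). Cxcl1 was at 12.01, 12.19 and 12.35 in rhPBEF lungs and at 7.96, 7.86 and 7.94 in control lungs, 19.2-fold higher, with the lowest adjusted p of the 12921 genes (4.74e-05). The 3 probe sets of Cxcl1 gave log2 differences from 1.29 to 6.58, so its fold change is uncertain. The platelet chemokine gene Ppbp did not pass the test, at 9.50, 9.54 and 9.05 in rhPBEF lungs and 8.09, 8.53 and 9.80 in control lungs.

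Promoter windows are shown for the genes among the 25 largest rises that hold the letters of an NF-kB site, since Cxcl1, Cxcl2 and Cxcl3, which lie in 1 chemokine cluster on chromosome 5, all carry them. RefSeq windows on GRCm38.p6, from 250 bases before to 50 after the gene start, were found for 21 of the 25, and 6 of these held GGG, any 2 bases and then TTTCC on either strand. All 6 windows are on the plus strand and are written 5′ to 3′, with the matching letters in capitals. Cxcl2 is at chr5:90903649-90903948, Cxcl3 at chr5:90785851-90786150, Cxcl1 at chr5:90890995-90891294, Il6 at chr5:30012864-30013163, Ccl20 at chr1:83116516-83116815 and Steap4 at chr5:7960222-7960521.
Cxcl2: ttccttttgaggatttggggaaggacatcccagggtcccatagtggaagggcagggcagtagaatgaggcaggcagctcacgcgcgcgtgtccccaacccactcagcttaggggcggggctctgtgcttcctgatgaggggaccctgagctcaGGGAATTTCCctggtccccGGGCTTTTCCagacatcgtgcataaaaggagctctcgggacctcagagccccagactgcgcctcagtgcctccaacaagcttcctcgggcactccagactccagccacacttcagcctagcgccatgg
Cxcl3: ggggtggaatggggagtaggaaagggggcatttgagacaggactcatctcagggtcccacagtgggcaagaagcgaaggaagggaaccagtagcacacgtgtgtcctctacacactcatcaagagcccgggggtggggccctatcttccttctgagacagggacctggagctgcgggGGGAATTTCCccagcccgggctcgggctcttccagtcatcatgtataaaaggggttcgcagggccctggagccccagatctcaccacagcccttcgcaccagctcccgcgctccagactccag
Cxcl1: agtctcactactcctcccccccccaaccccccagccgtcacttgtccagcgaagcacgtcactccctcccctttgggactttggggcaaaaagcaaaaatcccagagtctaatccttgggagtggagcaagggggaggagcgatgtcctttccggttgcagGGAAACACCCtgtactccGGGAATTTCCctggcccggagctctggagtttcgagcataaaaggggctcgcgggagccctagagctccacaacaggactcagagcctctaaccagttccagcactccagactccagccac
Il6: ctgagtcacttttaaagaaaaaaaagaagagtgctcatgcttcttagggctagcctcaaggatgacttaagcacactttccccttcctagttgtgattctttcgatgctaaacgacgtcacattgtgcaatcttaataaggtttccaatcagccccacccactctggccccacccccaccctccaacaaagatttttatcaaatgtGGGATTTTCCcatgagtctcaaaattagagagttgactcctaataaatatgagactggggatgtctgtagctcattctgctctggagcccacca
Ccl20: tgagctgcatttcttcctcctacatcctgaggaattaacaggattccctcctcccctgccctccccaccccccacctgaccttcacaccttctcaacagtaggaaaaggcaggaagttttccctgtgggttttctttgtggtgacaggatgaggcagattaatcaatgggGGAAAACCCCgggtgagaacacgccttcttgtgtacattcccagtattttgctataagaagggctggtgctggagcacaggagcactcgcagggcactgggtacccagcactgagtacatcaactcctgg
Steap4: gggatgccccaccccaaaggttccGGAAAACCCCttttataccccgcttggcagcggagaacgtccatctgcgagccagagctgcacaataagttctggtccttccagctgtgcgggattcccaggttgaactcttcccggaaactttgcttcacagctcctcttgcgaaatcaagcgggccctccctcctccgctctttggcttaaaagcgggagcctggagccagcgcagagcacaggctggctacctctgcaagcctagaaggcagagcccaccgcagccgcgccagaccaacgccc
The Cxcl2 and Cxcl1 windows each held 2 matches and the other 4 held 1. In Cxcl1, Cxcl2 and Cxcl3 the run GGGAATTTCC began 71, 97 and 73 bases before the gene start. In Il6 the match began 44 bases before the start, in Ccl20 80 and in Steap4 226. No match overlapped the AP-1 letters described next.

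These NF-kB letters occurred in 1.63% of all 32851 RefSeq windows and in 2.01% of the 10388 tested genes with a window. Among called genes that rose they occurred in 12 of 97 (12.4%), and among those at least 4-fold higher in 8 of 29 (27.6%). None of the 31 called genes that fell and had a window held them. The AP-1 letters TGANTCA, read on both strands, were in 6.55% of tested genes with a window, 16.5% of those that rose and 9.68% of those that fell. A match describes the letters of the window and is not a measurement of binding.

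Some chemokines for mononuclear cells rose as well. Of 22 tested CC chemokines and receptors 5 rose (22.7%, against 0.936% of all genes tested) and 0 fell. The median log2 difference was 0.94, and 16 members lay above 0. Ccl20, whose product attracts dendritic cells and lymphocytes through CCR6, was at 10.71, 10.57 and 12.22 in rhPBEF lungs and at 7.49, 7.22 and 7.14 in control lungs. Its difference was 3.88 (SE 0.38, limma adjusted p = 6.13e-04), and rhPBEF replicate 3 was the highest array. Ccl3, a ligand of CCR1, was at 9.97, 9.26 and 9.05 in rhPBEF lungs and 5.08, 6.17 and 5.24 in control lungs, a difference of 3.93 (SE 0.60, adjusted p = 0.0106). Ccl12, a mouse ligand of CCR2, rose 7.65-fold. Its levels of 8.71, 8.10 and 7.74 in rhPBEF lungs lay clear of 5.72, 5.42 and 4.60 in control lungs. The call of Ccl3 was lost without rhPBEF replicate 1 or control replicate 1 or 3, and that of Ccl12 without rhPBEF replicate 1 or 2 or any control array. Ccl9 rose 4.08-fold and Ccr1, a receptor for both Ccl3 and Ccl9, 5.62-fold. The list had 2 called members without rhPBEF replicate 2 and 4 without replicate 3. Among the 14 other chemokines and receptors tested, Cxcl10, which attracts T cells through CXCR3, was the 1 that rose. It was at 11.12, 11.63 and 9.15 in rhPBEF lungs, with replicate 3 lowest, and at 7.04, 6.68 and 6.77 in control lungs, a difference of 3.80 (SE 0.71, adjusted p = 0.0285), and without rhPBEF replicate 1 or 2, or any control array, it was not called. Cxcl9, another CXCR3 ligand, gave 7.04, 7.97 and 6.01 in rhPBEF lungs and 6.16, 5.88 and 5.74 in control lungs, with overlapping groups.

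Several cytokine genes rose, Il6 the most. Il6, which drives the acute phase response, was at 8.89, 10.45 and 8.61 in rhPBEF lungs, against 4.63, 4.59 and 4.61 in control lungs. The difference was 4.71 (SE 0.67), or 26.2-fold (limma adjusted p = 0.00780), and rhPBEF replicate 2 was the highest array. Of the 19 tested genes of the IL-6 family, STAT3 and Socs group, 4 rose and the median difference was 0.47. Socs3, the feedback inhibitor of IL-6 signalling, was at 12.02, 12.42 and 11.84 in rhPBEF lungs and 9.57, 9.35 and 9.41 in control lungs (6.28-fold, adjusted p = 0.00625). Osmr, a receptor chain for oncostatin M, rose 2.89-fold, and Pim1, a kinase gene induced by STAT factors, 2.88-fold. With rhPBEF replicate 2 left out, 2 of the 4 were called.

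The IL-1 family list held 14 tested genes, of which 4 rose (28.6%, against 0.936% of all genes tested), and the median difference was 0.85. Il1a, encoding IL-1 alpha, was at 8.51, 8.53 and 7.88 in rhPBEF lungs and 6.31, 6.35 and 6.66 in control lungs (3.65-fold, limma adjusted p = 0.0124). Il1f9, the gene of IL-36 gamma, was at 9.69, 9.81 and 9.35 in rhPBEF lungs and 7.89, 7.42 and 7.67 in control lungs (3.88-fold). Il1r2, the decoy receptor that binds IL-1 without signalling, rose 7.54-fold, and Il18rap, a chain of the IL-18 receptor, 2.66-fold. Il1b did not pass the test, although it was at 11.93, 11.21 and 10.67 in rhPBEF lungs and at 8.23, 7.94 and 7.94 in control lungs, a difference of 3.24 (SE 0.73, adjusted p = 0.0618). Without rhPBEF replicate 2 the list kept 1 called member, Il1f9, and Il1a was not called without rhPBEF replicate 1 or 2 or control replicate 1 or 2.

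Among 13 other cytokines and colony-stimulating factors 3 rose, with a median difference of 1.05. Csf3, which encodes the granulocyte growth factor G-CSF, was at 8.38, 10.07 and 8.96 in rhPBEF lungs and 6.57, 5.73 and 6.06 in control lungs (8.11-fold, limma adjusted p = 0.0131). Its call was lost without rhPBEF replicate 2 or control replicate 2 or 3. Tnf was at 8.20, 7.91 and 7.86 in rhPBEF lungs and 6.97, 6.96 and 6.85 in control lungs, a 2.10-fold rise with an adjusted p of 0.00685. Csf2rb, the shared receptor chain for GM-CSF, IL-3 and IL-5, rose 2.91-fold. Csf2 itself, encoding GM-CSF, missed the threshold at 10.98, 9.67 and 9.97 in rhPBEF lungs and 7.71, 7.57 and 6.82 in control lungs (adjusted p = 0.0567). In the TNF superfamily, 2 of 15 tested genes rose and 1 fell. Tnfsf9 and its receptor Tnfrsf9, the 4-1BB pair of T cell costimulation, rose 5.28-fold and 3.54-fold. With each of the 12 arrays left out in turn, both lost their call 5 times. Without rhPBEF replicate 2 the list had 0 rises called, and without replicate 3 it had 1. Tnfrsf21, the gene of death receptor 6, was at 9.17, 9.19 and 9.26 in rhPBEF lungs, against 10.01, 10.01 and 10.10 in control lungs, a difference of -0.83 (SE 0.11, adjusted p = 0.00398).

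Some genes of NF-kB signalling rose, several of them inhibitors of the pathway. Of 27 tested, 7 rose and 0 fell, the median difference was 0.54, and 23 were above 0. Tnfaip3, encoding the deubiquitinase A20 that restrains the pathway, was at 11.44, 11.96 and 11.54 in rhPBEF lungs and 9.11, 8.95 and 9.75 in control lungs (5.20-fold, limma adjusted p = 0.00382). Zc3h12a, whose product degrades mRNAs of Il6 and other cytokines, was at 9.07, 9.50 and 9.11 in rhPBEF lungs and 7.24, 7.39 and 7.63 in control lungs (3.50-fold, adjusted p = 0.00114). The inhibitor of kappa B family members Bcl3, Nfkbiz and Nfkbie rose 4.26-fold, 3.85-fold and 3.18-fold. Birc3, a ubiquitin ligase of TNF receptor signalling, rose 3.15-fold and the subunit gene Relb 2.93-fold. There were 3 calls without rhPBEF replicate 2 and 5 without replicate 3. Outside the list, Malt1, a protease that activates NF-kB downstream of antigen receptors, was at 10.11, 10.47 and 9.92 in rhPBEF lungs and 7.99, 8.14 and 8.04 in control lungs (4.31-fold), and its 3 probe sets gave differences of 2.07 to 2.11. Tbk1, a kinase of innate signalling, rose 1.48-fold.

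Sensors of microbial products rose selectively. Of 19 tested Toll-like receptor pathway genes 4 rose (21.1%, against 0.936% of all genes tested), with a median difference of 0.18. Cd14, the co-receptor for lipopolysaccharide, was at 13.44, 13.37 and 13.50 in rhPBEF lungs and 10.23, 9.90 and 9.96 in control lungs. That was a difference of 3.41 (SE 0.32), or 10.6-fold (limma adjusted p = 5.95e-04). Tlr2 rose 3.78-fold, Tlr13, a receptor for bacterial ribosomal RNA, 2.52-fold, and the adaptor gene Myd88 2.11-fold. Cd14 was the 1 member called without rhPBEF replicate 2. In the list of 21 tested lectins and inflammasome genes 5 rose. Clec4e, the receptor Mincle, was at 10.02, 9.94 and 9.33 in rhPBEF lungs and 6.23, 6.24 and 5.87 in control lungs (12.6-fold, adjusted p = 0.0355). The macrophage scavenger receptor gene Marco rose 3.80-fold, Casp4, which encodes the intracellular lipopolysaccharide sensor caspase-11 of mice, 3.18-fold, Cd300lf 2.63-fold and the beta-glucan receptor gene Clec7a 2.11-fold. That list kept 1 called member without rhPBEF replicate 2. Clec4e was not called without any one of the 3 rhPBEF and 3 control arrays, or without replicate 2 of the combined treatment.

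**Figure D2:**
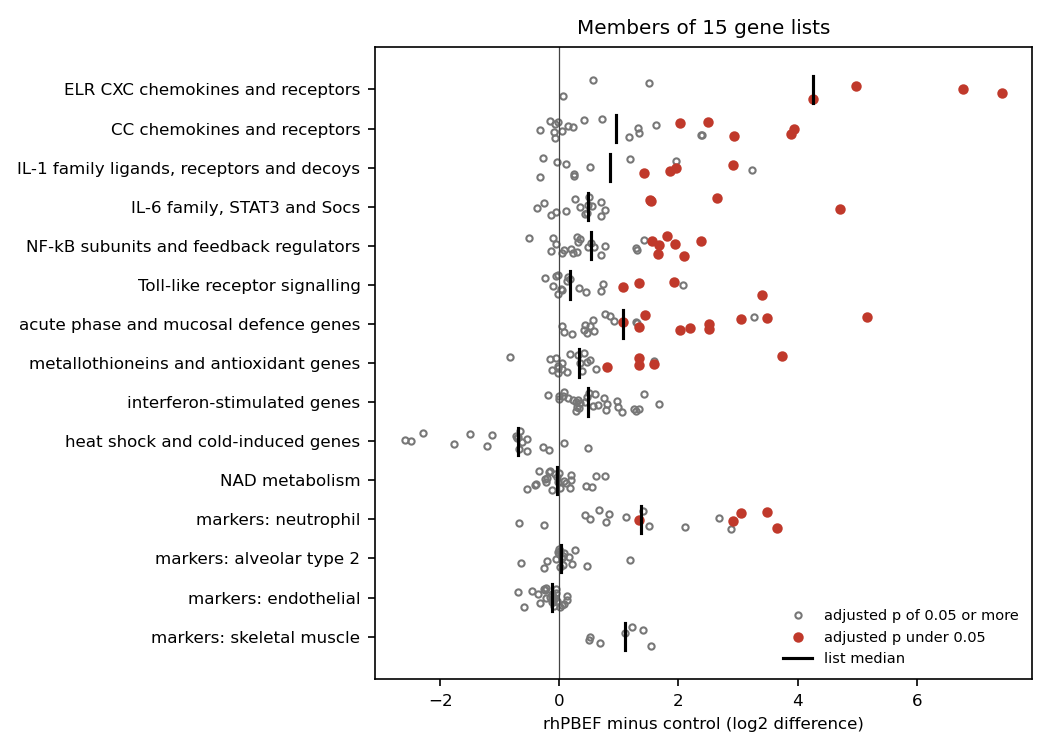
Log2 difference of rhPBEF minus control (horizontal axis) for each tested member of 15 gene lists, as filled points where the limma adjusted p was under 0.05 and open points otherwise, with the list median as a bar. The median was 4.27 for the neutrophil chemokines, 1.07 for acute phase and mucosal defence genes, -0.04 for NAD metabolism and -0.70 for heat shock genes.

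Genes for secreted defence proteins of the acute phase and the mucosa were higher as a list. All 25 tested members lay above 0, or 24 after quantile normalisation, while 4428 of all 12921 genes did. Of the 25, 10 rose and 0 fell, and the median difference was 1.07. Saa3, the serum amyloid A made outside the liver, was at 13.42, 13.17 and 11.74 in rhPBEF lungs and 7.83, 7.44 and 7.55 in control lungs. The difference was 5.17 (SE 0.68), or 36.0-fold (limma adjusted p = 0.00482). Lcn2, which withholds iron from bacteria by binding their siderophores, was at 13.53, 13.51 and 13.25 in rhPBEF lungs and 11.01, 11.18 and 11.52 in control lungs (4.59-fold, adjusted p = 6.04e-04). Hpx, encoding the haem-binding protein haemopexin, rose 5.70-fold and Orm1, an acute phase glycoprotein, 5.70-fold. Fgg, the gamma chain of fibrinogen, was at 8.20, 8.67 and 8.11 in rhPBEF lungs and 6.29, 6.10 and 6.49 in control lungs (4.09-fold, adjusted p = 1.76e-04). S100a8 and S100a9, the subunits of the zinc-binding protein calprotectin, stood at 13.76, 13.19 and 13.43 and at 13.56, 12.87 and 13.07 in rhPBEF lungs. Their control levels were 10.61, 9.87 and 10.77 for S100a8 and 9.88, 9.20 and 9.98 for S100a9, so they rose 8.27-fold and 11.2-fold. Slpi, a protease inhibitor of airway secretions, rose 2.72-fold, Lrg1 2.52-fold and Pigr, which carries antibodies across epithelium, 2.10-fold (adjusted p = 0.00165). Saa1 differed by 3.27 (SE 0.97) and missed the threshold (adjusted p = 0.132), with rhPBEF replicate 3 at 6.31 below the other 2 at 8.91 and 9.27. Leaving out rhPBEF replicate 2 left 5 of the 10 called. S100a9 lost its call without any one of the 6 arrays, and S100a8 without any of them except rhPBEF replicate 3.

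Genes that handle metals and oxidants rose in part, 5 of 24 tested (20.8%, against 0.936% of all genes tested), with a median difference of 0.33. Steap4, a reductase of iron and copper, was at 12.61, 12.41 and 12.30 in rhPBEF lungs and 8.96, 8.44 and 8.72 in control lungs. The difference was 3.73 (SE 0.31), or 13.3-fold (limma adjusted p = 2.33e-04), and its 2 probe sets gave 3.45 and 3.73. Mt2 and Mt1, which encode metal-binding metallothioneins, rose 3.01-fold and 2.53-fold, the mitochondrial superoxide dismutase gene Sod2 2.52-fold and the glutathione reductase gene Gsr 1.74-fold. Of the 5, Steap4 alone was called without rhPBEF replicate 2. Outside the list Gss, the gene of glutathione synthetase, fell, at 8.87, 9.07 and 8.97 in rhPBEF lungs and 9.50, 9.60 and 9.78 in control lungs (adjusted p = 0.0242), a call lost without any one of the 6 arrays.

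Metabolic and transport genes included some of the firmest rises. Slc26a4, encoding the anion exchanger pendrin of airway epithelium, was at 11.38, 11.08 and 11.07 in rhPBEF lungs and 6.32, 6.43 and 6.75 in control lungs. The difference was 4.68 (SE 0.37), or 25.6-fold (limma adjusted p = 1.76e-04). Ch25h, which makes 25-hydroxycholesterol, was at 11.36, 11.15 and 10.63 in rhPBEF lungs and 7.88, 7.53 and 7.85 in control lungs (9.81-fold, adjusted p = 0.00137). The arginine-using enzyme gene Arg2 and the arginine transporter gene Slc7a2 rose 3.63-fold and 2.31-fold. For Slc7a2 the rhPBEF arrays were at 9.99, 9.95 and 9.97, against 8.95, 8.67 and 8.67 in control lungs. Of the 31 tested metabolic enzymes of inflammation 3 rose and 1 fell, and of the 20 tested fluid and ion transport genes 2 rose and 1 fell. Slc12a2, the sodium-potassium-chloride cotransporter gene, rose 1.37-fold with all 3 rhPBEF arrays between 12.09 and 12.17, but was not called without any one of the 6 arrays. Other solute carriers outside those lists rose too: Slc6a14, an amino acid transporter, 2.44-fold, Slco1a5 2.40-fold, Slc13a3, a dicarboxylate transporter, 2.37-fold and the sodium-glucose transporter gene Slc5a1 2.33-fold. Ctps, the CTP synthase gene, was at 11.86, 11.68 and 11.39 in rhPBEF lungs and 9.75, 9.74 and 9.66 in control lungs (3.80-fold, adjusted p = 0.00260).

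Adhesion, transcription and immune activation genes rose singly. The list counts here rest on a few genes each and stand beside 0.936% of all genes tested that were called higher. Icam1, which leukocytes grip to leave vessels, was at 13.45, 13.51 and 13.35 in rhPBEF lungs and 12.08, 12.27 and 12.27 in control lungs (2.34-fold, limma adjusted p = 0.00962). Icam1 was not called without rhPBEF replicate 2 or control replicate 1, nor Cd83 without control replicate 2 or 3. With Cd44, Icam1 made up the 2 rises among 21 tested adhesion genes. Selp did not pass the test, and its 9.67, 10.73 and 7.97 in rhPBEF lungs spread far more than its 7.65, 6.89 and 7.54 in control lungs. Cd83, a maturation marker of dendritic cells, was at 10.78, 10.66 and 11.45 in rhPBEF lungs and 8.48, 7.96 and 7.87 in control lungs (7.27-fold). The schlafen family had 3 rises among 6 tested genes: Slfn4 14.1-fold, Slfn1 4.24-fold and Slfn2 2.57-fold, of which 1 was called without rhPBEF replicate 2. Among 39 tested immediate early genes, 2 rose, Zfp36, whose product destabilises cytokine mRNAs, and Cebpd, an acute phase transcription factor gene, by 2.19-fold and 2.04-fold. Neither was called without rhPBEF replicate 2. Cfb, complement factor B, rose 2.35-fold and Bhlhe40, a repressor linked to the clock, 2.15-fold.

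Of the 158 called genes, 78 were in none of the 50 lists. Mab21l3 was at 8.14, 8.46 and 8.72 in rhPBEF lungs and 5.18, 5.07 and 5.22 in control lungs, a difference of 3.29 (SE 0.23, limma adjusted p = 7.97e-05). Tnfaip2, a gene first found as induced by TNF, was at 11.52, 11.63 and 11.67 in rhPBEF lungs and 9.03, 8.88 and 8.56 in control lungs (6.90-fold, adjusted p = 2.33e-04). Plek, a platelet and leukocyte signalling protein, was at 10.80, 10.93 and 10.92 in rhPBEF lungs and 8.84, 8.96 and 9.05 in control lungs (3.83-fold). Hivep3, a zinc finger factor, rose 3.80-fold on the probe set used, but its 4 probe sets gave differences from 0.21 to 1.92. Gja1, the gap junction gene of connexin 43, rose 2.76-fold and all 6 of its probe sets were above 0 (0.78 to 1.72). Pik3r5, a regulatory subunit of leukocyte phosphoinositide 3-kinase, was at 8.18, 8.26 and 8.24 in rhPBEF lungs and 6.99, 7.12 and 6.94 in control lungs (2.32-fold, adjusted p = 0.00137). Ptpn2, a phosphatase acting on JAK and STAT proteins, rose 2.54-fold and Syk, a kinase of immune receptors, 2.16-fold. Genes of epithelial surfaces were among the rest: Muc4, a membrane mucin, rose 2.10-fold, Ehf, an epithelial ETS factor, 1.95-fold, and Itih4 1.75-fold. For Sdc4, a cell surface proteoglycan that rose 2.25-fold, the 2 probe sets disagreed, at -0.11 and 1.17.

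The falls were small and spread over several classes, and the 3 of at least 2-fold were those of the predicted gene Gm19439, Kcnk2 and Gpt2. Kcnk2, encoding the stretch-sensitive potassium channel TREK-1, was at 8.32, 7.95 and 8.62 in rhPBEF lungs and 9.59, 9.69 and 9.59 in control lungs. Its difference was -1.33 (SE 0.21, limma adjusted p = 0.0124). Gpt2, a mitochondrial transaminase gene, was at 7.20, 7.33 and 7.12 in rhPBEF lungs and 8.40, 7.99 and 8.35 in control lungs, a difference of -1.03 (SE 0.19). It was not called when the mean of its 4 probe sets was used. Btc, encoding betacellulin, a ligand of the epidermal growth factor receptor, was at 6.39, 6.25 and 6.43 in rhPBEF lungs and 7.32, 7.46 and 7.23 in control lungs (difference -0.98, SE 0.13, adjusted p = 0.00612). It was the 1 change among 9 tested ligands and receptors of that family, and its rhPBEF levels lay about at the 6.42 filter level. F3, tissue factor, which starts coagulation, was at 10.95, 11.11 and 10.61 in rhPBEF lungs and 11.39, 11.71 and 11.90 in control lungs, a difference of -0.77 (SE 0.14, adjusted p = 0.0242). F3 was the 1 called member of 18 tested coagulation genes. Krt19, a keratin of simple epithelia, was at 11.75, 11.47 and 11.41 in rhPBEF lungs and 12.17, 12.28 and 12.33 in control lungs (difference -0.72, SE 0.13, adjusted p = 0.0242). Amz1, a metallopeptidase gene, fell by 0.84 on the log2 scale. Of these, Btc kept its call without each array in turn. Kcnk2 and Krt19 lost theirs without any control array and without 2 of the 3 rhPBEF arrays (1 and 2 for Kcnk2, 2 and 3 for Krt19), F3 without rhPBEF replicate 1 or 3 or control replicate 2 or 3, and Gpt2 without any one of the 6.

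Among 37 tested epithelial and patterning transcription factor genes, Mycl and Irx5 fell and Elf3, an epithelial ETS factor gene, rose 1.96-fold. Mycl, a member of the Myc family, was at 7.44, 7.52 and 7.70 in rhPBEF lungs and 8.30, 8.31 and 8.26 in control lungs (limma adjusted p = 0.0232). Irx5, a homeobox gene, was at 8.20, 7.73 and 7.91 in rhPBEF lungs and 8.76, 8.60 and 8.56 in control lungs (adjusted p = 0.0157). Without any control array neither was called, nor Mycl without rhPBEF replicate 1 or 2, nor Irx5 without rhPBEF replicate 2. Outside the 15 largest, Cebpa, a factor needed for alveolar type 2 cell maturation, differed by -0.48 (SE 0.09) and lost its call when arrays were centred or quantile normalised. Grb7, an adaptor of growth factor receptors, fell by 0.63, Haus8, a spindle protein, by 0.66, Cmtm8 by 0.66, Nudt1, which clears oxidised nucleotides, by 0.63, and Rusf1 by 0.60 on the log2 scale. With each of the 12 arrays left out in turn, Cebpa lost its call 6 times, Grb7 8 and Haus8 6. Cmtm8 lost its call 5 times, and Nudt1 and Rusf1 7 times each. Under the other alternatives fitted by gene, Grb7, Nudt1 and Rusf1 lost theirs 3, 2 and 3 times.

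**Figure D3:**
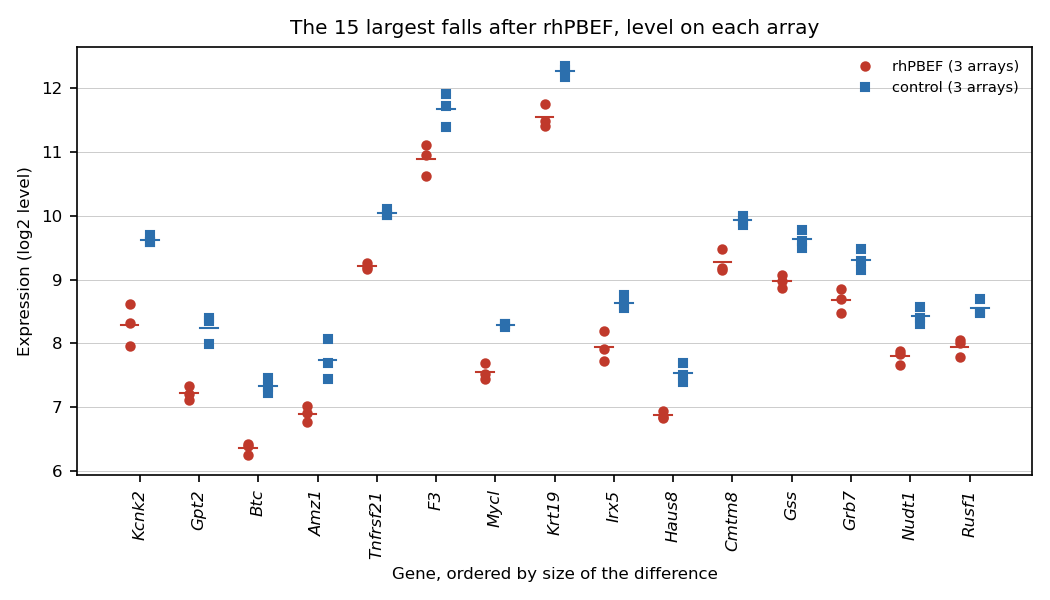
Log2 expression level (vertical axis) of the 15 genes with the largest falls, Gm19439 left out, on each of the 3 rhPBEF arrays (circles) and 3 control arrays (squares), ordered by the size of the log2 difference, with bars at group means. No rhPBEF array reaches a control array, and group means differ by more than 1 for Kcnk2 and Gpt2 and by less for the rest.

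Some classes lay to one side of control without a called gene. Of 30 tested interferon-stimulated genes 27 lay above 0, the median difference was 0.48, and 0 passed the test by limma, with 13 at an unadjusted p under 0.05, all higher. Of all genes tested 18.3% had an unadjusted p under 0.05 in this comparison, in either direction, and 1.22% were called, so that 0 called members in a list of this size is near the background. Rsad2, encoding the antiviral protein viperin, was at 9.79, 9.35 and 8.28 in rhPBEF lungs and 7.51, 7.52 and 8.12 in control lungs (adjusted p = 0.108), with replicate 3 nearest to control. Iigp1, an immunity-related GTPase, showed the same spread, at 11.88, 11.85 and 9.90 in rhPBEF lungs and 9.34, 9.75 and 9.54 in control lungs. Relative to the control mean, the mean level of the list was 0.85, 0.72 and 0.20 on rhPBEF replicates 1, 2 and 3. Without replicate 3 the median was 0.67 and 1 member was called.

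Heat shock genes lay lower. Of 19 tested, 17 were below 0, the median difference was -0.70, and 15 did not overlap, with the rhPBEF arrays below, as was so for 24% of all genes tested. By limma 0 passed the test with all arrays (6 had an unadjusted p under 0.05), but 7 fell without ventilation replicate 2, whose mean level over the list was 1.53 above the control mean. Hsph1, a co-chaperone of HSP70, was at 9.54, 9.20 and 9.02 in rhPBEF lungs and 11.06, 11.65 and 11.89 in control lungs, a difference of -2.28 (SE 0.89, adjusted p = 0.215). The inducible HSP70 genes Hspa1a and Hspa1b were at 11.57, 7.89 and 9.17 and at 12.69, 9.29 and 10.59 in rhPBEF lungs, against 12.04, 11.20 and 12.86 for Hspa1a and 13.29, 13.15 and 13.91 for Hspa1b in control lungs. The groups overlapped for Hspa1a and not for Hspa1b, and as near-identical genes their probe sets may read each other's RNA.

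The mouse gene for the injected protein's counterpart did not pass the test. Nampt was at 10.56, 10.66 and 10.59 in rhPBEF lungs and 10.54, 10.60 and 10.36 in control lungs, a difference of 0.11 (SE 0.12, limma adjusted p = 0.677), and its 3 probe sets gave 0.11 to 0.22. Of the 24 tested genes of NAD metabolism 0 passed by limma, 7 had an unadjusted p under 0.05, against 18.3% of all genes, and the median difference was -0.04. Of the 7 at an unadjusted p under 0.05, 3 were higher and 4 lower. Parp14, Parp9 and Kmo stood farthest from 0 on the positive side, and the groups did not overlap for any of the 3. Over the list, 4 genes lay above control without overlap and 6 below, against 9.24% and 24% of all genes tested. No gene was called among 32 tested genes of TGF-beta, BMP and Wnt signalling, 26 of Notch, hedgehog and FGF signalling, 22 cytochrome P450 and xenobiotic enzymes, 24 matrix genes or 15 survival regulators. At an unadjusted p under 0.05 these held 8, 4, 3, 8 and 3 genes, shares to be read against the 18.3% of all genes. Of the 24 matrix genes 19 lay above 0, and 1 was called when rhPBEF replicate 3 was left out. Adamts4, the matrix gene farthest from 0, was at 9.05, 9.55 and 7.07 in rhPBEF lungs and 5.85, 5.86 and 5.29 in control lungs. Its difference was 2.89 (SE 0.67, limma adjusted p = 0.068).

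Markers of cell types were examined because bulk lung RNA cannot tell fewer cells of a type from less RNA per cell. Of 18 tested neutrophil markers 5 rose, the median difference was 1.37 and 16 were above 0. Called were Clec4e, S100a9, S100a8, Il1r2 and Lrg1, all of which other lists also hold. Relative to the control mean, the mean level of the markers was 1.75, 1.53 and 1.46 on the rhPBEF arrays, against -0.14 to 0.07 on the control arrays. Mmp8, the neutrophil collagenase gene, was at 10.36, 9.55 and 9.85 in rhPBEF lungs and 7.32, 7.02 and 7.41 in control lungs and missed the threshold (limma adjusted p = 0.115), as did Clec4d (adjusted p = 0.0807). Leaving out rhPBEF replicate 2 left 0 neutrophil markers called, and leaving out replicate 3 left 2. The part of these markers in the other rises was not tested.

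Most other marker lists had medians closer to 0. Of 21 tested macrophage markers Marco and Plet1 rose and the median difference was -0.13. Over all genes tested 0.936% were called higher and 0.286% lower. The counts at an unadjusted p that follow stand beside 18.3% for all genes tested. Of 18 alveolar type 2 markers 0 were called by limma (4 had an unadjusted p under 0.05), their median difference was 0.03, and their mean log2 level was 12.96 to 13.01 in rhPBEF lungs and 12.85 to 12.97 in control lungs, among the highest of the marker lists. Of 25 endothelial markers 0 were called, with 3 at an unadjusted p under 0.05 and a median of -0.13. Of 21 ciliated cell markers 0 were called, with 7 at an unadjusted p under 0.05 and a median of -0.20, and 20 lay below 0. Fibroblast, lymphocyte, monocyte and dendritic cell, smooth muscle, club cell and adipocyte markers also had 0 calls, and between 1 and 3 members each at an unadjusted p under 0.05. All 9 adipocyte markers lay below 0, and 13 of 14 smooth muscle markers, or 6 without rhPBEF replicate 3, as did 8493 of all 12921 genes. Relative to the control mean, the adipocyte list stood at 0.63, -0.36 and -0.27 on control replicates 1, 2 and 3. It stood at -0.38, -0.25 and -0.38 on the rhPBEF arrays, so control replicate 1 alone was apart. Of 17 alveolar type 1 markers 1 fell and 0 rose, 14 lay below 0, and the median was -0.08. Against ventilation 2 of the 17 were called lower, beside 0.248% of all genes tested in that comparison. Of 8 mesothelial markers 1 rose, Slpi, and the median was 0.47. Of 13 cardiac muscle markers 12 were below 0, with a median of -0.45, 0 called by limma and 0 at an unadjusted p under 0.05. Their mean level relative to the control mean overlapped, at -0.37, 0.17 and -0.77 on the rhPBEF arrays and 0.48, -0.35 and -0.13 on the control arrays. Of the 6 liver genes checked, 4 lay below the filter. The skeletal muscle list, 7 tested genes with 0 called and 0 at an unadjusted p under 0.05, had a median difference of 1.10 that came from 1 array. Its mean level relative to the control mean was 3.35 on rhPBEF replicate 2, against -0.06 and -0.29 on rhPBEF replicates 1 and 3, and its median was -0.18 without that array.

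The ventilated mice give a second reading of rhPBEF on arrays that share none with the comparison above. Both comparisons came from the same model, however, and shared its estimate of spread for each gene. A gene called for its small spread carried that spread into the second test, so the calls are not independent. The signs and the overlaps of arrays do not use this estimate. Between the 3 arrays of rhPBEF plus ventilation and the 3 of ventilation, limma called 42 genes (0.325% of those tested), 40 higher (0.31%) and 2 lower (0.0155%). That count was 16 and 23 without ventilation replicates 1 and 2, 17, 13 and 406 without replicates 1, 2 and 3 of the combined treatment, and 26 to 41 without single rhPBEF or control arrays (28 without rhPBEF replicate 1, 28 and 26 without control replicates 1 and 2). All 121 genes that rose with rhPBEF alone were above 0 here, against 43.6% of all genes tested, and in 88 of them the arrays did not overlap, against 4.05% of all genes. All 37 genes that fell were below 0, against 56.4% of all genes, and 25 did not overlap, against 6.31%. Of the rises 35 were called again and of the falls 1, Btc. These 36 genes made up 22.8% of the 158 called without ventilation and 85.7% of the 42 called with it. When only the 6 arrays of the 2 ventilated groups were fitted, 3 genes were called, 2 higher and 1 lower. The median difference was 0.90 for the rises in ventilated mice and 1.41 in unventilated mice, and for the falls -0.33 and -0.58. The difference was smaller with ventilation in 108 of the 121 rises and 35 of the 37 falls, and the unventilated values had been chosen for passing the test.

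Individual genes showed both patterns. Cxcl3 was at 11.25, 11.02 and 8.29 with rhPBEF plus ventilation and 4.65, 5.30 and 3.88 with ventilation alone, a difference of 5.58 (SE 0.65, limma adjusted p = 0.00412). Ccl20 was at 11.83, 11.49 and 11.07 with both and 7.28, 7.43 and 6.74 with ventilation alone, a difference of 4.31 (SE 0.38), which is above its 3.88 in unventilated lungs. Slc26a4 was at 11.71, 11.48 and 10.20 with both and 7.29, 8.39 and 8.23 with ventilation alone (difference 3.16, SE 0.37, adjusted p = 0.00412). Mab21l3, Cd14, Steap4 and Lcn2 differed by 2.53, 2.47, 2.87 and 1.75, each with an adjusted p under the threshold and no overlap. By contrast, S100a9 was at 13.87, 12.76 and 12.55 with both and 13.63, 13.44 and 10.93 with ventilation alone, with overlapping groups and a difference of 0.39 (SE 0.61, adjusted p = 0.875). Slfn4 was at 10.86, 10.25 and 9.62 with both and 10.29, 10.57 and 8.06 with ventilation alone (adjusted p = 0.787), with overlapping groups. Il6 was at 11.66, 10.32 and 11.09 with both and 7.65, 10.30 and 7.78 with ventilation alone, a difference of 2.44 (SE 0.67) without overlap that was not called (adjusted p = 0.210).

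Whether rhPBEF had a different effect in ventilated than in unventilated mice was tested by the interaction. By limma 0 of 12921 genes passed, and 288 (2.23%) had an unadjusted p under 0.05. The lowest adjusted p was 0.998. Without ventilation replicate 3 the test called 4 genes. The smallest p-values belonged to Krtap17-1, Fgg, Traf1, Cxcl2 and Lrrfip1. For Cxcl2 the difference was 4.52 (SE 0.52) with ventilation and 7.43 (SE 0.52) without it. Ventilation alone gave levels of 8.06, 9.53 and 6.80, and the unadjusted p of the interaction was 0.00215.

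**Figure D4:**
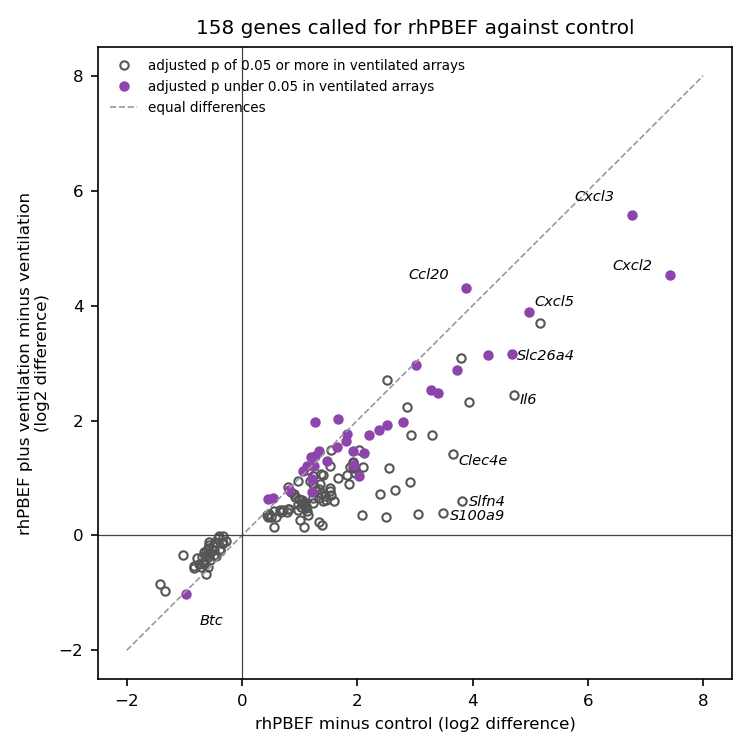
Log2 difference of rhPBEF plus ventilation minus ventilation (vertical axis) against rhPBEF minus control (horizontal axis) for the 158 genes called in the latter, filled where the limma adjusted p was also under 0.05 in the ventilated arrays. The 121 rises lie above 0 on both axes and the 37 falls below 0 on both, and S100a9 and Slfn4 lie close to 0 on the vertical axis.

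Ventilation alone is a mechanical injury of the lung, and its arrays show which of the rhPBEF rises were also high without the protein. Between the rhPBEF and the ventilation arrays limma called 89 genes (0.689%), 57 higher (0.441%) and 32 lower (0.248%) with rhPBEF. That count was 42, 45 and 54 without rhPBEF replicates 1, 2 and 3, 45, 56 and 147 without ventilation replicates 1, 2 and 3, 59 without control replicate 1 or 2, and 171 without replicate 3 of the combined treatment. Among called genes, the largest differences above ventilation were those of Cxcl3 (5.77), Cxcl2 (4.67) and Ccl20 (4.02), followed by Cxcl5, Saa3, Slc26a4, Mab21l3, Cxcl1, Steap4 and Csf3, with differences between 2.68 and 3.58. Mab21l3 was at 8.14, 8.46 and 8.72 in rhPBEF lungs and 5.43, 5.19 and 5.42 in ventilated lungs (adjusted p = 4.43e-04), and Ccl20 was at 10.71, 10.57 and 12.22 in rhPBEF lungs and 7.28, 7.43 and 6.74 in ventilated lungs (adjusted p = 0.00104).

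Levels of neutrophil markers in these groups were as follows. S100a8 was at 13.76, 13.19 and 13.43 in rhPBEF lungs and 13.93, 13.59 and 11.61 in ventilated lungs, where replicate 3 was lower than the other arrays (limma adjusted p = 0.771). Il1r2 was at 10.06, 10.34 and 9.93 in rhPBEF lungs and between 8.45 and 10.97 in ventilated lungs, and the groups overlapped (adjusted p = 0.851). Of the 18 markers 0 were called by limma, 1 had an unadjusted p under 0.05, against 0.689% and 12.5% of all genes tested, and their median difference was 0.07. Their mean level relative to control was 1.98, 1.93 and 0.51 on the ventilation arrays. Socs3, at 11.47, 12.76 and 10.93 in ventilated lungs, likewise overlapped its rhPBEF levels. Ventilation against control had 1 called gene, Ephb4, which was lower (0.00774%). By limma 2004 genes (15.5%) had an unadjusted p under 0.05 there, beside 18.3% for rhPBEF against control. Against control, Socs3 differed by 2.65 with rhPBEF and 2.28 with ventilation, and Ccr1 by 2.49 and 2.33, comparisons that share the control arrays.

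Of the genes called against ventilation, those farthest below it were Krtap17-1 (-1.92), Btc (-1.46), Pmvk (-1.45), Kcnk2 (-1.24) and F3 (-1.23), with Krt18, Krt19, Lrrk2, Rasgef1b and Rassf2 between -1.03 and -0.91. Hspa1a, Hsph1 and Hspa1b lay lower, at -2.71, -2.49 and -2.30, and were not called (limma adjusted p = 0.387, 0.306 and 0.403). F3 was at 10.95, 11.11 and 10.61 in rhPBEF lungs and 12.06, 12.18 and 12.14 in ventilated lungs (limma adjusted p = 0.00303). Against control, F3 differed by -0.77 with rhPBEF and by 0.46 with ventilation. Krt18, a keratin of simple epithelia, was at 11.07, 11.26 and 10.76 in rhPBEF lungs and 12.12, 11.91 and 12.14 in ventilated lungs (adjusted p = 0.00753), and its control levels were 11.33, 11.42 and 11.66.

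**Figure D5:**
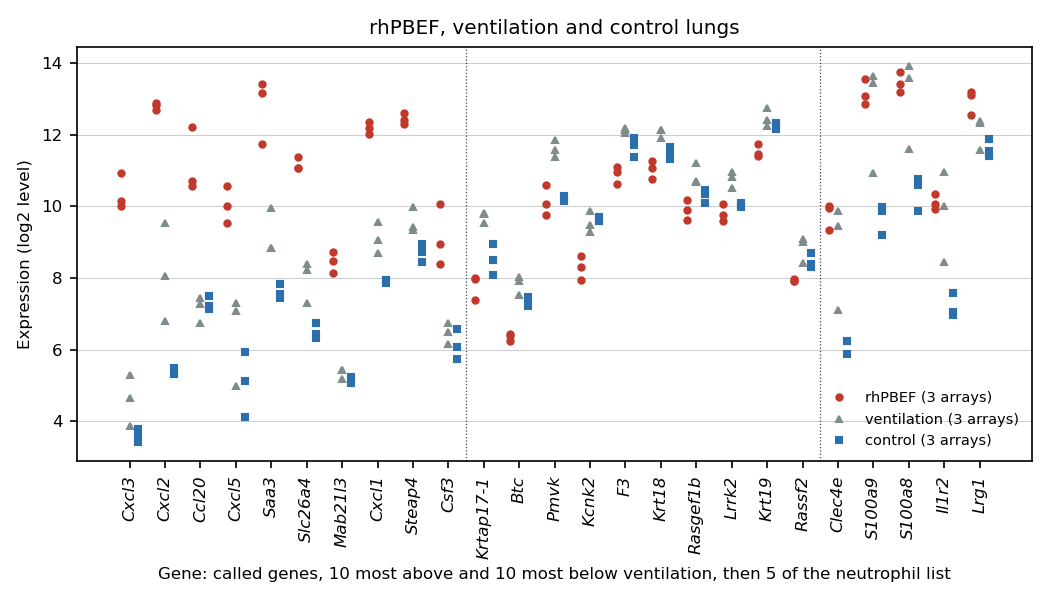
Log2 expression level (vertical axis) on the 3 rhPBEF arrays (circles), 3 ventilation arrays (triangles) and 3 control arrays (squares) for the 10 genes most above and the 10 most below ventilation after rhPBEF among those called, then 5 genes of the neutrophil list. For Mab21l3 and Ccl20 the ventilation arrays lie at the control level, while for S100a8, S100a9 and Il1r2 they reach the rhPBEF arrays.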

How the data were processed

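Total RNA of mouse lung was measured on 12 Affymetrix arrays in 4 groups of 3, assigned from sample titles. One label field names all 12 as control animals, and it was set aside. The values deposited by the authors are on the log2 scale, with 1 value for each probe set and array. MAS5 and GCRMA are named, per the submitters' processing notes, without a role or version. How the arrays were normalised is not given in the sources used here, nor is a genome build. Without detection calls, low levels and background cannot be separated. Precision is limited by the number of arrays. Medians of the 12 arrays lay at 7.0 to 7.07, and correlations within groups at 0.983 to 0.997.

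Of 45101 probe sets 64 controls were left out. Probe sets with exactly 1 symbol (34945) were used, those with several (932) or none (9160) were not. Symbols of 12875 tested genes were matched through Entrez identifiers, which changed 0. Of tested genes 5853 had more than 1 probe set. A model of 4 group means was fitted to all 12 arrays using lmFit and eBayes of limma 3.58.1 under R 4.3.3, which left 8 degrees of freedom in the residuals and added 2.99 from the prior. Adjustment was by Benjamini and Hochberg over all genes tested, and genes with an adjusted p under 0.05 were called. For single values, 3 arrays against 3 allow an exact two-sided p of 0.1 at the lowest. SE is the standard error of a difference in this model.

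The members and the 50 gene lists (1072 genes, 854 tested) were chosen with earlier results of these data known. The rule for naming took the 25 largest rises and 15 largest falls past the threshold whose groups did not overlap, and called members of each list. It also took the 3 members of each list farthest from 0, Nampt, the 10 largest differences each way among genes called against ventilation and the 5 smallest interaction p-values. For many lists the uncalled ones among the 3 farthest members were left out of the text, such as Acod1, Batf and Cftr. Other called genes were named after their values were seen, and transcripts with clone or model names were left unnamed except Gm19439. Lists are described by counts and medians without a test. Promoters and their build come from RefSeq.

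Replicate numbers were checked for pairing through the correlations of deviations from group means. Of 18 same-numbered pairs 7 correlated above 0.1, and the range was -0.21 to 0.53. The highest, 0.53, was between replicates 3 of rhPBEF and of the combined treatment. Pairs of unlike number reached 0.33, for rhPBEF replicate 1 with replicate 2 of the combined treatment. The numbers were not treated as pairs, and whether same-numbered arrays were processed together was not tested. In simulated data for rhPBEF against control (12921 genes, 200 changed, 5 rounds) 42.8% of changes of 0.5 and 86.8% of changes of 1 on the log2 scale were recovered, with 4.57% false among calls. The simulated noise was independent and had the same spread for a gene on every array, without ventilation effects. Real arrays were less even, as the counts without single arrays show, so these rates need not hold for them. Alternatives changed the filter, normalisation, variance model, probe sets, replicate block and arrays in the fit. Those for the gene lists were chosen after seeing the data. Plots used Python 3.11.15 and matplotlib 3.10.9.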

Additional observations from a re-analysis of the deposited data

How the results depend on the processing

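The 158 calls for rhPBEF against control, 89 against ventilation and 42 for rhPBEF in ventilated mice stayed within 1.5 times under other filters, median centring, quantile normalisation, a trended and robust variance, and the mean of probe sets. Counting probe sets gave 65 in ventilated mice. Array weights, whose estimation stopped before converging, gave 1626, 374 and 3029. For rhPBEF against control these were 621 rises and 1005 falls, against ventilation 202 and 172, and in ventilated mice 1178 and 1851. Fitting only the 6 arrays of each comparison gave 636, 40 and 3. The cause was not tested. Leaving out each array in turn gave 44 to 358, 42 to 171 and 13 to 406 calls. The interaction had 0 calls under each setting run for it and 0 to 4 without single arrays. With the replicate block the counts were 186, 99, 49 and 0, and 129 of the 158 genes were shared. The replicate numbers were not taken to pair the samples. Quantile normalisation left 124 rises and 20 falls. No called gene changed sign under any alternative fitted by gene, and signs of single probe sets were not compared there. The uncalled difference of Pmvk between rhPBEF and control changed sign, at 0.13 without rhPBEF replicate 1 and -0.29 without rhPBEF replicate 2. Without the filter, 9 genes below it were called, 6 higher and 3 lower, among them Fga (2.06), the alpha chain of fibrinogen. Signal near background limits what low control levels, such as those of Cxcl2 and Cxcl3, can show.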
